A study of Mus musculus with 12 samples.

Results

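Tet2/Flt3-mutant (T/F) and Dnmt3a/Flt3-mutant (D/F) AML cells were compared with each other after both had been exposed to CCS1477 (inobrodib), an inhibitor of the p300 and CBP bromodomains. The comparison takes 6 of the 12 samples of the study, the 3 T/F and the 3 D/F samples treated with CCS1477, unpaired, and every gene whose mean reached 1 TPM (transcript abundance scaled to gene length and library total) in T/F or D/F, which are 15199 of the 15651 genes listed. D/F mice were Dnmt3a fl/fl, Flt3 ITD/ITD, Mx1Cre and T/F mice were Tet2 fl/fl, Flt3 ITD/ITD, Mx1Cre, so that both groups carry the Flt3 internal tandem duplication on both alleles and the Mx1-Cre transgene. Per the study's methods, the mice were on a C57BL6/J background and Cre was left uninduced, so that its leaky activity could delete 1 or both floxed alleles. Splenocytes of moribund mice, 3 per genotype, were enriched for c-Kit with CD117 beads, plated with SCF, IL6 and IL3, and incubated for 6 hours with drug or vehicle (DMSO). D/F cells received 4 µM and T/F cells 2 µM CCS1477, so that dose and genotype cannot be told apart in differences under CCS1477. The same holds for changes of a difference from DMSO to CCS1477. Differences under DMSO involve no dose. The cultures were bulk populations, in which fewer cells of a type and less RNA per cell cannot be told apart.

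DNMT3A writes methylation at CpG dinucleotides and TET2 oxidizes it on the way to removal, and loss of either is an early event in myeloid malignancy. p300 and CBP are acetyltransferases that mark active enhancers, including H3K27ac at myeloid and MYC enhancers, and their bromodomains hold them on acetylated chromatin. The question the comparison addresses is whether leukemias with opposite lesions of the methylation cycle hold different transcripts while the same coactivators are inhibited.

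The libraries were alike in scale, with sums of 914204 to 931403 TPM over the listed genes. D/F replicate 2 stood apart, with a median gene at 20.0 TPM against 17.0 to 18.8 TPM in the other 5 libraries and correlations across genes of 0.944 to 0.958 with them, where every other pair reached 0.967 to 0.991. It had 6.87 TPM of the promyelocyte gene Ms4a3, against 108 to 229 TPM in the others. Summed Y-linked transcripts (Ddx3y, Kdm5d, Uty and Eif2s3y) were at 159 to 183 TPM in all T/F libraries and 169 TPM in D/F replicate 1, but at 13.4 and 7.68 TPM in D/F replicates 2 and 3, which instead had 184 and 120 TPM of Tsix, the antisense partner of Xist. The D/F group thus mixes libraries with and without Y-linked transcripts and the T/F group does not. The part of either in the results below was not tested beyond a few alternative fits. These leave out libraries or the X and Y genes, or take Y-linked expression as a covariate. With the covariate, the genotype difference rests on replicate 1 alone on the D/F side. Kit, the receptor used for enrichment, was expressed in every library at 22.8 to 54.9 TPM, and the other stem and progenitor markers summed with it to 746 to 978 TPM in D/F and 817 to 1080 TPM in T/F cells.

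Few genes separated the genotypes under CCS1477 by the test across all genes. With limma, more than 2-fold and an adjusted p under 0.05, 5 of 15199 genes (0.0329%) were called, 2 higher in T/F (0.0132%) and 3 higher in D/F (0.0197%). The number was 2 without any 1 T/F library, 9 without D/F replicate 1, 24 without D/F replicate 2 and 39 when the spread was estimated over all 4 groups. At an unadjusted p under 0.05 the number was 1643 (10.8%), and 244 of these were more than 2-fold apart, 174 higher in T/F (1.14%) and 70 higher in D/F (0.461%). In 1458 genes (9.59%) all 3 T/F samples lay above all 3 D/F samples, and in 1627 (10.7%) all D/F samples lay above. These shares are the background for each gene list described below. Without D/F replicate 2 they were 20.2% and 15%, the background for list counts given without that library. The median gene differed by -0.03 on the log2 scale, T/F minus D/F. The 2 lowest p-values belonged to 1 ribosomal protein gene and a copy of it.

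**Figure D1:**
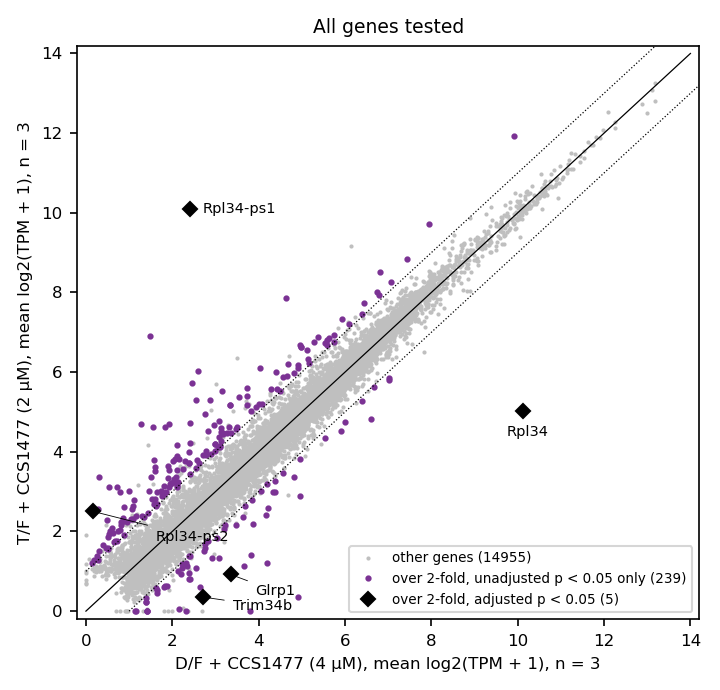
Mean log2(TPM + 1) of each of the 15199 genes in 3 D/F samples (x axis) and 3 T/F samples (y axis) under CCS1477, with the identity line and dotted lines at 2-fold. The 5 called genes (diamonds) are labelled, and Rpl34 and Rpl34-ps1 sit on opposite sides of the diagonal.

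Rpl34 encodes a protein of the large ribosomal subunit, and mouse chromosomes carry intronless copies of it that are annotated as processed pseudogenes. The gene lies at chr3:130726831-130730398 on the minus strand, Rpl34-ps1 at chr6:71124610-71124963 and Rpl34-ps2 at chr13:116153781-116154134, both on the plus strand (GENCODE vM21, GRCm38). Both pseudogenes are 354 bases long, the length of the Rpl34 coding sequence from start to stop codon. Rpl34-ps1 matches that coding sequence at all but 2 positions (99.4% identity), T132C and C318G, counted from 1 at the A of the start codon with the base of Rpl34 first. Rpl34-ps2 differs at 10 positions (97.2%) and shares both of these substitutions. The coding sequence and Rpl34-ps1, from the GENCODE transcripts, are shown because the pair holds the 2 lowest p-values of the comparison, from base 55 to the stop codon at base 354, with the 2 positions that tell them apart in capitals.
Rpl34: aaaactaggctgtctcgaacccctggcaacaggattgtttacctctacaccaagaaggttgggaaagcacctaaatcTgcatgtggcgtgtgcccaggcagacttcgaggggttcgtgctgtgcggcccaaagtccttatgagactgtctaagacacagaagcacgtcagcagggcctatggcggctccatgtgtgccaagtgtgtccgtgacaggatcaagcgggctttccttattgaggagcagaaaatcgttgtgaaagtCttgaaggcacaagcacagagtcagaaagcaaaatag
Rpl34-ps1: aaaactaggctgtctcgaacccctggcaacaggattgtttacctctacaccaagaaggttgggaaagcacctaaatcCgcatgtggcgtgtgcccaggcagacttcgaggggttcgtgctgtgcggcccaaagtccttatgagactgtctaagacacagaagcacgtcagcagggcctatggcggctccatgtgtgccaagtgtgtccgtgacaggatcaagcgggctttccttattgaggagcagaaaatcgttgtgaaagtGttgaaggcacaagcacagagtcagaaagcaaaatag

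Rpl34 was listed at 1056, 1281 and 1025 TPM in the 3 D/F samples and at 31.1, 31 and 32.2 TPM in the 3 T/F samples. Rpl34-ps1 had the opposite order, with 2.40, 6.40 and 5.09 TPM in D/F and 1095, 1057 and 1139 TPM in T/F. The groups were far apart for both entries, which mirrored each other in level. On the log2(TPM + 1) scale Rpl34 was lower in T/F by -5.10 ± 0.12 (SE, limma adjusted p = 9.59e-05) and Rpl34-ps1 higher by 7.68 ± 0.29 (adjusted p = 0.000735). Rpl34-ps2 was at 0, 0 and 0.422 TPM in D/F and at 5.21, 3.90 and 4.98 TPM in T/F (2.33, adjusted p = 0.0307); its mean was below the 5 TPM set for naming a gene, and it is named after its values were seen. The sum of the 3 entries was 1058, 1287 and 1030 TPM in D/F (mean 1125 ± 141, SD) and 1131, 1092 and 1176 TPM in T/F (1133 ± 42.3). The summed values overlapped. Of the 324 stretches of 31 bases in the whole of Rpl34-ps1, 262 are identical in the Rpl34 coding sequence, so reads can be shared between these entries and the level of each one alone is uncertain. The same split was present under DMSO, where Rpl34 averaged 1040 ± 126 TPM and 55.3 ± 7.32 TPM (SD, n = 3), D/F first. There the sums did not overlap, at 955, 1188 and 987 TPM in D/F and 1259, 1207 and 1213 TPM in T/F. Which of the copies was transcribed in either genotype was not tested, since TPM per gene hold no read sequence. Nor was it tested whether the reads counted for an entry came from its own locus. Rpl34 lies 2.78 Mb from Tet2 on chromosome 3.

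**Figure D2:**
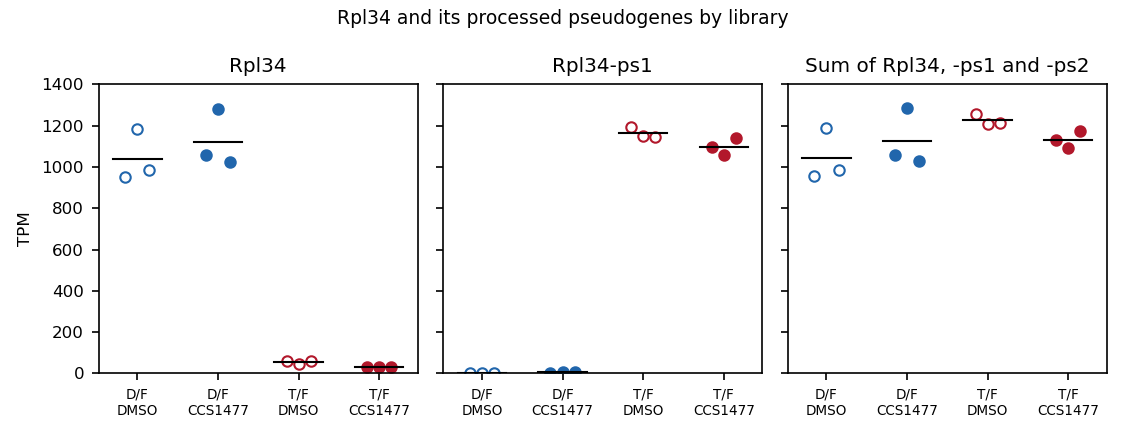
TPM of Rpl34, of Rpl34-ps1 and of the sum of Rpl34 and both pseudogenes in each of the 12 libraries (circles, open for DMSO and filled for CCS1477; bars, means of 3). The 2 single entries change places between D/F and T/F, while the sum lies between 955 and 1287 TPM in every library.

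The other 2 called genes were higher in D/F cells. Glrp1 was at 8.92, 8.11 and 10.7 TPM in D/F and at 0.872, 0.884 and 0.926 TPM in T/F samples, a difference of -2.43 ± 0.13 (SE, limma adjusted p = 0.00386). Trim34b, of the tripartite motif family, was at 5.73, 6.53 and 4.64 TPM in D/F and at 0.237, 0.155 and 0.453 TPM in T/F (-2.37 ± 0.15, adjusted p = 0.0120). For both genes the D/F samples stood together well above the T/F samples. Trim34b belongs to a cluster of near-identical copies on chromosome 7, so that reads could be split among them. Glrp1 was also called under DMSO, at 22.6 ± 1.88 TPM against 1.63 ± 0.515 TPM (SD, n = 3), and Trim34b under DMSO missed the threshold at -1.70 (adjusted p = 0.184). Among 15265 genes tested under DMSO, 5 were called (0.0328%; 6.15% at an unadjusted p under 0.05), and 4 of these were the same genes as under CCS1477. Leaving out any 1 T/F library ended the calls of Glrp1, Trim34b and Rpl34-ps2 and left only Rpl34 and Rpl34-ps1, and leaving out D/F replicate 1 ended those of Trim34b and Rpl34-ps2. The calls of Glrp1, Trim34b and Rpl34-ps2 were also lost with a replicate block and with Y-linked expression as a covariate. In the covariate fit the genotype difference rests on 1 D/F library, replicate 1.

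Neither floxed gene passed the test. Dnmt3a, the de novo methyltransferase, was at 40.8, 49.6 and 43.4 TPM in D/F and at 49.1, 52.9 and 57.2 TPM in T/F samples, and the groups overlapped (0.25, limma adjusted p = 0.533). Tet2 was at 34.5, 35.6 and 32.5 TPM in D/F and at 24.6, 26.1 and 28.7 TPM in T/F. All D/F samples lay above all T/F samples, but the difference of -0.36 ± 0.11 (SE) did not pass (adjusted p = 0.343), and under DMSO it was -0.30. TPM per gene sum over exons and do not show whether the floxed exons were present, so they check neither deletion. Of the 62 genes tested within 10 Mb of Tet2, 11 lay above in T/F (17.7%) and 11 above in D/F (17.7%), and 1 was called, Rpl34, with 10 at an unadjusted p under 0.05 (16.1%, against 10.8% of all genes). Within 10 Mb of Dnmt3a, 44 genes were tested, 1 lay above in T/F (2.27%), 5 lay above in D/F (11.4%) and none was called by limma, with 2 at an unadjusted p under 0.05 (4.55%).

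Neither drug target passed the test. Ep300 was at 97.6, 94.4 and 95.2 TPM in D/F and 104, 112 and 104 TPM in T/F, above in T/F by 0.15 (limma 95% interval -0.08 to 0.38, adjusted p = 0.611). Crebbp averaged 92.3 ± 17.9 TPM and 88.9 ± 2.36 TPM (SD, n = 3), with overlapping groups. Flt3, the mutated receptor kinase of both models, was at 3.60, 13.5 and 7.02 TPM in D/F and 7.72, 10.2 and 19.3 TPM in T/F. Ly6a, which encodes the progenitor antigen Sca-1, was at 2.29, 4.52 and 6.83 TPM against 4.84, 5.63 and 14.4 TPM. The groups overlapped for both genes.

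MYC drives proliferation and ribosome production, and the BCL2 family sets the threshold for apoptosis. Myc was at 20.7, 17.8 and 19 TPM in D/F and at 24.9, 19.3 and 27.1 TPM in T/F under CCS1477. The groups overlapped and the difference was 0.29 (limma 95% interval -0.08 to 0.66, adjusted p = 0.558); under DMSO it was -0.48, with means of 378 ± 84.7 TPM and 268 ± 40.9 TPM (SD, n = 3), D/F first. Bcl2, the anti-apoptotic target of venetoclax, was at 5.12, 7.47 and 6.35 TPM in D/F and at 6.23, 4.79 and 7.98 TPM in T/F, a difference of -0.01 (interval -0.50 to 0.49). Bcl2l1 averaged 32.9 and 35.2 TPM and Mcl1 138 and 145 TPM in D/F and T/F, and both overlapped. Bcl2a1b, an anti-apoptotic family member of myeloid cells and 1 of several near-identical copies, was at 2.88, 9.16 and 7.83 TPM in D/F and at 6.98, 20.7 and 46.6 TPM in T/F. Its mean was 3.74-fold higher in T/F but the groups overlapped (adjusted p = 0.498). Of 15 BCL2 family genes tested, none was called, 3 lay above in T/F (20.0%) and 1 above in D/F. Those in T/F were the pro-apoptotic Pmaip1 (NOXA, 20.8 ± 3.18 against 34.0 ± 6.03 TPM), Bak1 (82.8 ± 17.6 against 122 ± 10.8 TPM) and Bid, each SD over 3 samples, and the 1 in D/F was Bnip3l, at 296 ± 67.2 against 208 ± 15.3 TPM. The list's median difference was 0.09, against -0.03 over all genes.

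Genes of cholesterol and fatty acid synthesis had the largest share of non-overlapping members among the 31 lists with all 6 libraries; without D/F replicate 2 the erythroid list, given below, had a larger one. Of 30 tested, all D/F samples lay above all T/F samples in 21 (70.0%, against 10.7% of all genes tested), and all T/F samples lay above in none (against 9.59%). The median difference of the list was -0.53. No member was called by limma, the lowest adjusted p being 0.135; all 21 had an unadjusted p under 0.05. Sqle, squalene epoxidase, was at 83.9, 92.9 and 75.7 TPM in D/F and at 49.1, 51.6 and 52.8 TPM in T/F samples (-0.70 ± 0.12, SE). Hsd17b7, a 3-keto reductase of late sterol synthesis, was at 19.8, 18.8 and 15.8 TPM against 10.7, 10.5 and 11.8 TPM (-0.67 ± 0.12). Cyp51, lanosterol 14-demethylase, was at 46.1, 49.7 and 35.7 TPM against 27.1, 27.6 and 26.6 TPM (-0.66 ± 0.15). Lss, lanosterol synthase, was at 66.3, 65.6 and 43.4 TPM against 33.4, 32.1 and 27.5 TPM (-0.87 ± 0.19). In these 4 genes the T/F samples kept within a narrow band and the lowest D/F sample stayed above it.

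The remaining 17 of the 21 included the SREBP regulator Insig1 (-1.25) and, in fatty acid synthesis, Fasn (-0.61) and Acaca (-0.33); these 3 lie outside the naming rule. The sterol efflux genes Abca1 (0.26) and Abcg1 (0.07) overlapped between the groups. Under DMSO the same list had a median of -0.16, with all D/F samples above in 3 of 30 genes (against 7.42% of all genes) and all T/F samples above in none. Without D/F replicate 2 the count under CCS1477 was again 21 of 30, with 15% of all genes as the background. The change of the genotype difference between DMSO and CCS1477, tested on the within-mouse differences, had a list median of -0.37 against 0.02 over all genes. No gene of 15583 passed that test with limma (lowest adjusted p = 0.163; 2293 genes, 14.7%, at an unadjusted p under 0.05), nor in a fit of 4 groups with no term for the mouse.

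**Figure D3:**
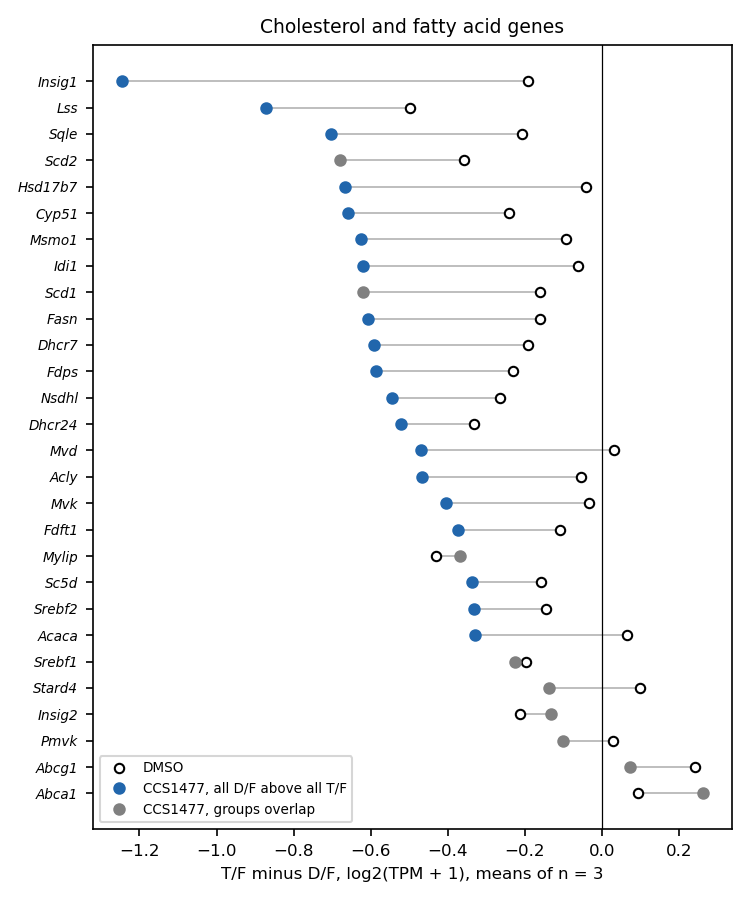
Difference T/F minus D/F in mean log2(TPM + 1) (x axis) for 28 of the 30 cholesterol and fatty acid genes tested, under DMSO (open circles) and CCS1477 (filled circles, blue where the groups did not overlap). The 19 blue genes run from -0.33 for Acaca to -1.25 for Insig1, and 26 of the 28 are below 0 under CCS1477.

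The naming rule gave further genes with a higher level in D/F cells. None of the following passed the adjusted test (limma adjusted p = 0.131 to 0.178 for the genes given by value); all had D/F samples above T/F samples. Mt2, a metallothionein, was at 123, 88.8 and 79.6 TPM in D/F and at 17.0, 35.5 and 34.3 TPM in T/F. Under DMSO its means were 29.0 and 26.4 TPM, so that the groups were near each other without the drug (change of the difference -1.66, adjusted p = 0.170). Hexim1, the inhibitor of the elongation factor P-TEFb, was at 83.2, 86.0 and 78.3 TPM in D/F and 51.9, 49.1 and 47.3 TPM in T/F. It too was close under DMSO, at 16.2 ± 2.39 and 15.5 ± 0.161 TPM (SD, n = 3; change -0.68, adjusted p = 0.170). Vegfa, the angiogenic growth factor and a hypoxia-inducible gene, was at 105, 77.2 and 71.5 TPM against 40.2, 32.8 and 39.97 TPM. Gadd45a, a stress-induced gene listed with p53 targets, was at 33.7, 26.1 and 25.8 TPM against 16.0, 14.5 and 12.9 TPM. The naming rule also gave Gm17090 (8.47 ± 1.59 against 3.50 ± 0.475 TPM), Rps4l (14.3 ± 8.06 against 1.77 ± 0.898 TPM), the inositol phosphatase gene Inppl1 (17.7 ± 6.17 against 4.46 ± 1.31 TPM), Shf (20.4 ± 7.43 against 6.97 ± 0.801 TPM) and Rgcc (15.7 ± 3.35 against 7.18 ± 1.32 TPM), each SD over 3 samples. Under DMSO all D/F samples also lay above for Vegfa (-0.65), Gm17090 (-0.59), Rps4l (-1.81), Inppl1 (-1.99) and Shf (-0.45). Gadd45a (-0.09) and Rgcc (-0.15) overlapped there.

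Of 33 hypoxia and glycolysis genes, 4 lay above in D/F (12.1%, near the 10.7% of all genes) and none in T/F, with a median of -0.30; the 4 were Vegfa, the demethylase Kdm3a (55.9 ± 13.2 against 35.1 ± 3.32 TPM, SD, n = 3), P4ha2 and Hilpda. Without D/F replicate 2 the number was 15 of 33 (45.5%, against 15% of all genes). Under DMSO 6 of 34 lay above in D/F (against 7.42% of all genes) and none in T/F. Of 25 acetyltransferase, BET and deacetylase genes, 4 lay above in D/F (16.0%) and 2 in T/F (8.00%; 5 and 4 without D/F replicate 2), Hexim1 and Sirt1 (88.1 ± 6.35 against 73.0 ± 2.53 TPM) among those in D/F. Of 27 p53 targets, 5 lay above in D/F (18.5%) and 2 in T/F (7.41%). Of 28 immediate early genes, 4 lay above in D/F (14.3%) and none in T/F (6 and 2 without D/F replicate 2), including Jun, at 13.3 ± 2.78 TPM in D/F and 7.92 ± 1.70 TPM in T/F. Of 34 integrated stress and unfolded protein response genes, 3 lay above in D/F and 1 in T/F, and without D/F replicate 2 the numbers were 22 (64.7%) and 1. Counts for the stress and hypoxia lists thus changed when this library was left out. List counts without any other library are not given here. Of 56 MYC target genes, 1 lay above in D/F (1.79%) and none in T/F. Without D/F replicate 2 these were 12 (21.4%, against 15% of all genes) and none. By mean, 41 of the 56 were higher in T/F (73.2%, against 44.1% of all genes). Their median was 0.15 with all libraries and -0.0049 without D/F replicate 2.

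Several genes known from monocytes had higher levels in T/F cells without passing the test. Beside Rpl34-ps1, the naming rule gave 9 genes more than 2-fold higher in T/F with no overlap, and none of them passed (limma adjusted p = 0.0705 to 0.128). Ccr2, the chemokine receptor of inflammatory monocytes, was at 8.60, 4.10 and 6.86 TPM in D/F and at 34.5, 48.8 and 32.7 TPM in T/F, a 5.94-fold difference in means. Ms4a6c was at 8.72, 7.44 and 11.7 TPM against 31.6, 38.2 and 35.2 TPM. Pirb, an inhibitory receptor for MHC class I on myeloid cells, was at 9.84, 7.22 and 10.7 TPM against 29.1, 39.8 and 38.4 TPM. These 3 genes also had all T/F samples above under DMSO, by 1.21, 1.71 and 0.98. Cd180, a Toll-like receptor homolog, was at 0.663, 1.01 and 0.576 TPM in D/F and at 5.18, 6.64 and 9.49 TPM in T/F. Under DMSO its difference was 0.52, with 57.2 TPM in D/F replicate 2 and 10.5 and 10.6 TPM in the other D/F samples.

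The 5 others were Nrros, which anchors latent TGF-β1 on myeloid cells, Gas7, Lst1, Pik3r6 and Gm1966. Nrros was at 30.5, 36.9 and 37.4 TPM in D/F and at 71.1, 72.4 and 79.1 TPM in T/F. Gas7 averaged 7.74 ± 0.919 against 21.9 ± 3.86 TPM, Lst1 8.18 ± 1.61 against 21.5 ± 3.24 TPM, and Pik3r6, a regulatory subunit of PI3K gamma, 6.96 ± 0.478 against 17.5 ± 2.16 TPM (SD, n = 3). Gm1966 was at 2.82, 9.92 and 2.94 TPM against 51.8, 58.3 and 47.4 TPM, and D/F replicate 2 was the highest of its group. Without that library Gm1966 was called (3.78, limma adjusted p = 0.00142), as was Ms4a6c (1.69, adjusted p = 0.0499).

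**Figure D4:**
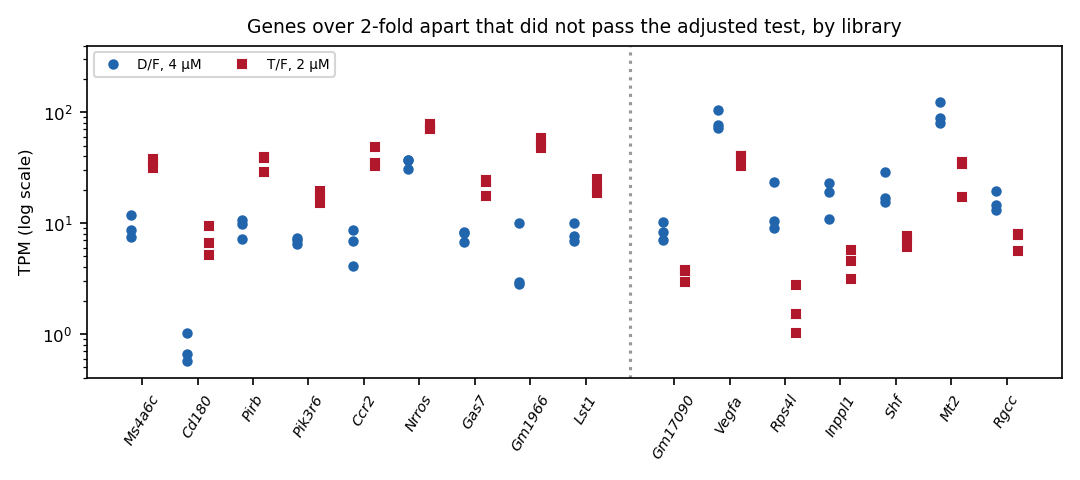
TPM (log axis) in each D/F (circles) and T/F (squares) library under CCS1477 for the 9 genes higher in T/F (left of the dotted line) and 7 higher in D/F (right) that were more than 2-fold apart without overlap and did not pass the adjusted test. Ccr2 spans 4.10 to 8.60 TPM in D/F and 32.7 to 48.8 TPM in T/F.

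By list, 7 of 20 monocyte and macrophage genes lay above in T/F (35.0%, against 9.59% of all genes), none lay above in D/F and none was called; the median was 0.39, and 6 of the 20 had the higher mean in D/F. Leaving out D/F replicate 2 gave 8 of 20 in T/F (40%, against 20.2% of all genes) and 1 in D/F. With Ccr2 these included the protease Ctss, at 39.2, 27.8 and 49.3 TPM in D/F and 80.4, 118 and 130 TPM in T/F, the F4/80 gene Adgre1, at 2.65 ± 0.773 against 7.07 ± 1.95 TPM, and the receptor Csf1r, at 2.92 ± 1.12 against 8.04 ± 2.80 TPM (SD, n = 3). The summed level of the list did not follow, at 359 to 776 TPM in D/F and 528 to 591 TPM in T/F, because Ly6c2 made up much of it, at 140 to 552 TPM in D/F and 131 to 250 TPM in T/F. Under DMSO 7 of 24 genes lay above in T/F and 1 in D/F, against 5.17% and 7.42% of all genes. Of 38 inflammatory genes, 12 lay above in T/F (31.6%) and none in D/F, with a median of 0.68 and none called, and without D/F replicate 2 it was 20 (52.6%, against 20.2% of all genes). Under DMSO 7 of the 38 lay above in T/F and none in D/F, with a median of 0.33. Saa3, an acute phase protein, was at 2.29, 1.90 and 3.68 TPM in D/F and 12.1, 12.9 and 81.1 TPM in T/F, where 1 sample was far above the others. Fcer1g, the common Fc receptor gamma chain, was at 161 ± 37.5 against 266 ± 36.3 TPM. The C-type lectin receptors Clec7a (1.15 ± 0.509 against 3.95 ± 0.474 TPM) and Clec4e (1.55 ± 0.949 against 4.28 ± 0.937 TPM) had low levels in both groups (SD, n = 3).

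Neutrophil genes had no common direction. Of 21 tested, 3 lay above in T/F (14.3%) and 1 in D/F (4.76%), with a median of 0.19. Without D/F replicate 2, 4 lay above in T/F and 6 in D/F (28.6%, against 15% of all genes), and the median was -0.47. Lyz2, lysozyme of monocytes and granulocytes, was at 140, 73.1 and 134 TPM in D/F and at 396, 386 and 320 TPM in T/F (limma adjusted p = 0.135), and Ly6g was at 0.473, 0 and 0.200 TPM against 8.997, 6.17 and 1.87 TPM. Padi4, which citrullinates histones in neutrophils, was the one above in D/F, at 67.4, 29.6 and 46.1 TPM against 25.1, 18.2 and 16.0 TPM. The sums of the list overlapped, at 2055 to 10801 TPM in D/F and 3405 to 8355 TPM in T/F, and all 14 primary granule genes overlapped as well. Once D/F replicate 2 was left out, 5 of the 14 lay above in D/F (35.7%) and the median moved from -0.07 to -0.44.

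Of 30 integrin, selectin and chemokine receptor genes tested, 13 lay above in T/F (43.3%) and 2 in D/F (6.67%), with a median of 0.39 and none called; without D/F replicate 2 these were 18 (60%, against 20.2% of all genes) and 3. Under DMSO, 3 of 31 lay above in T/F and 1 in D/F, and the median was 0.02. Cxcr4, which retains progenitors in the marrow niche, was at 88.3, 69.0 and 78.3 TPM in D/F and at 144, 137 and 132 TPM in T/F (0.81 ± 0.13, SE; limma adjusted p = 0.135). Under DMSO Cxcr4 averaged 169 ± 28.0 and 162 ± 12.8 TPM (SD, n = 3), and the change of the difference was 0.87 (adjusted p = 0.163). Itgb7, the beta-7 integrin, was at 28.7, 28.9 and 19 TPM against 42.5, 48.6 and 53.2 TPM. Ccr2, given above, belongs to this list too. The 2 integrins above in D/F were Itga6 (-0.30) and Itgav (-0.22).

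Stem and progenitor genes had members on both sides. Of 33 stem and progenitor genes, 5 lay above in T/F (15.2%) and 2 in D/F (6.06%), with a median of 0.05. Without D/F replicate 2 these were 10 (30.3%, against 20.2% of all genes) and 2, with a median of 0.28. Runx1, the master regulator of definitive hematopoiesis, was at 18.4, 13.4 and 16.5 TPM in D/F and at 32.6, 40.3 and 34.1 TPM in T/F (1.11 ± 0.15, SE; limma adjusted p = 0.131), while under DMSO the groups overlapped with a difference of -0.24. Cd48, a SLAM family antigen, was at 39.1 ± 4.46 against 70.7 ± 4.42 TPM and Lmo2, a partner of TAL1, at 60.7 ± 11.2 against 89.6 ± 1.63 TPM (SD, n = 3). Mycn went the other way, at 5.72, 10.5 and 6.14 TPM in D/F and 3.03, 1.72 and 3.18 TPM in T/F. All 11 Hox cofactor and Hox genes tested overlapped, with a median of -0.05; without D/F replicate 2, 1 lay above in each group.

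Of 22 writers, erasers and readers of DNA methylation tested, 3 lay above in T/F (13.6%) and 4 in D/F (18.2%), and the median was 0.01. Without D/F replicate 2 these were 7 (31.8%, against 20.2% of all genes) and 5 (22.7%, against 15%). Apobec1, a cytidine deaminase, was the T/F gene with the lowest p, at 5.25, 7.56 and 5.52 TPM in D/F and 10.5, 11.6 and 12.8 TPM in T/F (limma adjusted p = 0.178). In D/F the set held Gadd45a and Tet2, given above. Of 29 genes silenced by methylation outside the germline, only 6 were listed and 5 tested. Of these 5, 2 lay above in D/F (40%) and none in T/F. All 5 had the higher mean in D/F, with a median of -0.70, which was -0.39 without D/F replicate 2 and -0.81 over the 4 tested under DMSO. The Rhox and Xlr genes of chromosome X, which share members with this list, went both ways. Of 10 tested, 2 lay above in T/F and 1 in D/F, and none was called (lowest limma adjusted p = 0.135). Of 13 imprinted genes 1 lay above in T/F and 2 in D/F; without D/F replicate 2, 3 of the imprinted genes lay above in T/F.

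Cell cycle genes had small differences. Of 40 G2/M genes, all T/F samples lay above all D/F samples in 14 (35.0%) and none lay above in D/F, but the differences were small, with a median of 0.21 and none called. By mean, 38 of the 40 were higher in T/F, as were 39 of 40 S phase genes, against 44.1% of all genes. Ccnb2, cyclin B2, was at 115, 95.7 and 107 TPM in D/F and 142, 138 and 129 TPM in T/F (0.36 ± 0.12, SE). Ube2c, the ubiquitin-conjugating enzyme of the anaphase-promoting complex, was at 107 ± 22.1 against 145 ± 17.9 TPM, Nusap1 at 80.4 ± 1.81 against 95.4 ± 3.84 TPM and Bub1b at 93.2 ± 3.61 against 109 ± 4.58 TPM (SD, n = 3). Under DMSO 1 of the 40 lay above in T/F and the median was 0.02. Without D/F replicate 2, 15 of the 40 lay above in T/F (37.5%, against 20.2% of all genes) and 2 in D/F (5%, against 15%). The G2/M median was then 0.08. Of 40 S phase genes, 4 lay above in T/F (10%), near the background, and the median was 0.23. Without D/F replicate 2, 4 lay above in each direction (10%), below the background without that library. The S phase median was then 0.0025.

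Counts of interferon-stimulated genes differed with and without D/F replicate 2. With all libraries, 8 of 45 lay above in T/F (17.8%) and none in D/F, and the median was 0.26. Without that library it was 31 of 45 (68.9%, against 20.2% of all genes) and none in D/F. Ifi204, a DNA sensor of the PYHIN family, was at 0.638, 0.344 and 0.390 TPM in D/F and 2.38, 2.60 and 3.60 TPM in T/F (limma adjusted p = 0.0848). Gbp7 was at 17.4 ± 1.66 against 25.5 ± 2.17 TPM, Zbp1, a sensor of Z-form nucleic acid, at 3.55 ± 1.13 against 7.17 ± 1.24 TPM and Slfn5 at 2.06 ± 0.812 against 5.74 ± 2.62 TPM (SD, n = 3). Isg15 (0.03), a member named outside the rule, overlapped. None of the 45 was called.

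Some markers of other lineages also had higher levels in T/F, without passing the test (lowest limma adjusted p = 0.188). B cell genes summed to 27.2 to 61.7 TPM in D/F and 117 to 156 TPM in T/F, and 3 of 5 tested lay above in T/F, all of them immunoglobulin or B cell receptor genes, while the B lineage factor Ebf1, at 1.51 ± 0.298 against 1.41 ± 0.272 TPM (SD, n = 3), overlapped. Under DMSO the B cell sums were 38.8 to 77.5 TPM in D/F and 80.1 to 84.8 TPM in T/F, and 3 of 7 lay above in T/F. Ighm was at 39.7, 40 and 16.8 TPM in D/F and 93.1, 95.4 and 118 TPM in T/F, Cd79b at 4.34, 8.22 and 3.64 TPM against 10.9, 12.3 and 13.4 TPM and Igkc at 6.21 ± 2.42 against 15.6 ± 5.11 TPM (SD, n = 3). The defining markers Cd79a and Ms4a1 were not analysed here. Of 13 erythroid genes, 3 lay above in T/F (23.1%; 10, or 76.9%, without D/F replicate 2, against 20.2% of all genes), with sums of 145 to 178 TPM in D/F and 179 to 225 TPM in T/F; Gata1 was at 1.15 ± 0.840 against 4.05 ± 1.27 TPM, and the globin genes Hba-a2 and Hbb-bt were listed at 0 in 3 and 2 of the 6 libraries. MHC class II genes were 9 of 10 higher by mean in T/F but 1 lay above (3 without D/F replicate 2), with sums of 445 to 1332 TPM and 931 to 2746 TPM, and H2-Eb1 was at 36.9, 38.2 and 127 TPM against 91.4, 114 and 252 TPM. Of 7 T and NK cell, 11 megakaryocyte and 3 stromal genes tested, none lay above in either group. Leaving out D/F replicate 2 placed 3 of the 7 (42.9%) and 4 of the 11 (36.4%) above in T/F, against 20.2% of all genes. Of 11 mast cell, basophil and eosinophil genes, 7 had the higher mean in D/F, with a median of -0.20, and 1 lay above, in T/F (9.09%); without D/F replicate 2, 5 lay above in D/F (45.5%, against 15% of all genes) and 3 in T/F. The part of these cells in the higher levels of monocyte genes in T/F was not tested.

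**Figure D5:**
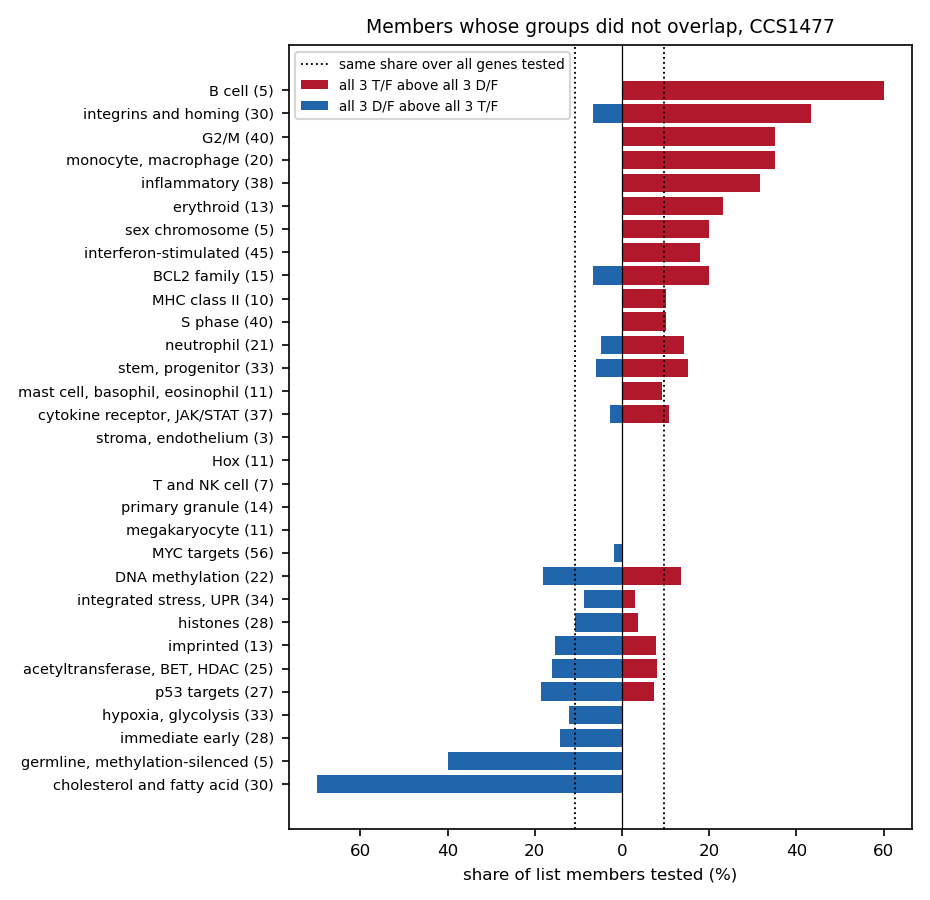
Share of the tested members of each list (number in brackets) in which all 3 T/F samples lay above all 3 D/F samples (right, red) or the reverse (left, blue) under CCS1477. Dotted lines mark the shares over all 15199 genes, 9.59% and 10.7%; the cholesterol list reaches 70.0% on the D/F side and, on the T/F side, the B cell list 60% of 5 and the homing list 43.3% of 30.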

How the data were processed

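RNA was sequenced (paired-end, stranded kit) from c-Kit-enriched splenocytes of 3 D/F and 3 T/F mice after CCS1477 or DMSO, and the 6 CCS1477 libraries were compared. The authors deposited gene-level TPM, made with kallisto and mm10 per the submitters' processing notes, with AltAnalyze in the study's methods; the annotation and settings are not given in the sources used here. TPM keep no read numbers, so depth per library is unknown and precision is the spread between 3 mice, for which the labels give separate mouse numbers.

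Symbols and positions came from GENCODE vM21 (15252 of 15651 identifiers matched a symbol). Genes averaging 1 TPM or more in T/F or D/F entered limma 3.58.1 (R 4.3.3) as log2(TPM + 1), T/F minus D/F, eBayes without trend, two-sided, Benjamini-Hochberg over all 15199; a call needed more than 2-fold and an adjusted p under 0.05. Fold changes on this scale understate low genes. Replicate numbers are different mice, so no block was used. The DMSO libraries had the same fit, and the change of the difference used within-mouse CCS1477 minus DMSO values. Every gene's 3 against 3 exact permutation test cannot go below p = 0.1. The fit was tested on simulated data. Scripts ran in Python with matplotlib for figures.

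Genes named were 12 fixed genes, up to 10 per direction by size among called genes averaging 5 TPM or more without overlap, filled to 10 by smallest p among genes more than 2-fold apart, and up to 4 per list by smallest p; exceptions are marked, and some genes are not reported here. Members and the 31 lists were chosen with earlier results of these data known. Promoter CpG content was not read, because the RefSeq promoter table held 3 of the 5 called genes and 10374 of all tested, too few for the check. Alternatives were another pseudocount, filter, scaling or variance model, a fit of 4 groups, a replicate block, sex chromosomes left out and each library left out.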

Additional observations from a re-analysis of the deposited data

Results flagged for a closer look

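For 8 of 103 genes named (7.77%), every D/F mouse moved one way from DMSO to CCS1477 and every T/F mouse the opposite way, against 321 of 15583 genes (2.06%). Most named genes were chosen for a difference under CCS1477, which enters this change, so nothing is read from the larger share. Higher after CCS1477 in D/F and lower in T/F were Rpl34 (difference of the log2 changes, T/F minus D/F, -0.89; -0.22 for the sum of Rpl34 and both pseudogenes), Rps4l (-0.58), Sqle (-0.49), Hsd17b7 (-0.62) and Jun (-1.19). Ube2c (0.52), Stfa2 (1.19) and Gm5483 (1.43) had the reverse pattern. The difference itself did not pass for any of them in limma over 15583 genes (adjusted p = 0.170 for Rpl34, 0.197 for Rps4l, 0.181 for Sqle, 0.171 for Hsd17b7, Jun and Ube2c, 0.265 for Stfa2 and 0.170 for Gm5483). Sqle differed by 0.39, 0.18 and 0.44 in D/F mice and by -0.16, -0.17 and -0.15 in T/F mice. Jun differed by 0.49, 0.90 and 0.13 in D/F and by -0.45, -0.82 and -0.80 in T/F. The doses differed between the genotypes.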

How the results depend on the processing

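The number of called genes, 5 in the comparison as reported, was 4 to 7 with a pseudocount of 0.1, a filter at 5 TPM or none, rescaling to the median gene, quantile normalization or without X and Y genes, and 5 in the DMSO libraries. It was 8 with an eBayes trend, 39 when the spread was estimated over all 4 groups and 244 at an unadjusted p. Leaving out 1 library gave 2 to 24: 2 without any T/F replicate, 9 without D/F replicate 1, 24 without D/F replicate 2 and 6 without D/F replicate 3. With Y-linked expression as a covariate it was 9, and with only the 4 libraries that have it 20, both chosen after seeing the data. Rpl34 and Rpl34-ps1 were called under every one of these settings. The replicate block gave 2. Same-numbered samples are different mice and their deviations correlated at 0.15, -0.27 and -0.15, so the numbers do not pair them. The change of the difference gave 0 calls throughout. Of the named genes' values, 52 of 1841 reversed. This number includes the DMSO libraries, which are another treatment and not another processing of the CCS1477 libraries. Opposite in sign under DMSO were Ly6a -0.13, Myc -0.48, Clec4e -0.0563, Cxcr4 -0.0551, Ccnb2 -0.11, Nusap1 -0.0512, Ube2c -0.0667, Runx1 -0.24, Lmo2 -0.23, Sirt1 0.0214, Jun 0.51, Bid -0.12 and Acaca 0.0649. Reversed with the Y-linked covariate and in its 4 libraries alike were Kit 0.36, Crebbp 0.18, Bcl2 0.24, Mcl1 -0.015, Abcg1 -0.14, Ebf1 0.0787, Ms4a3 -0.0999 and Ms4a7 0.13. Bcl2 was 0.0091 when rescaled. Quantile normalization reversed Bcl2 0.0665, Ebf1 0.0162 and Ms4a7 0.0624. Values with 1 library left out reversed within these ranges: Kit -0.36 to 0.29, Crebbp -0.15 to 0.11, Bcl2 -0.16 to 0.15, Abca1 -0.15 to 0.74, Abcg1 -0.11 to 0.18, Isg15 -0.15 to 0.32, Ebf1 -0.15 to 0.0346, Ms4a3 -0.34 to 2.09 and Ms4a7 -0.11 to 0.12. The cause was not tested. TPM cannot bound counting error, and 3 mice per group limit what could pass.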

Other observations

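Neighbouring paralogs stood on the same side in several clusters; these were chosen after their values were seen, and reads can be split among near-identical copies. Over all genes tested, 9.59% lay above in T/F and 10.7% in D/F, the background for each cluster count below. All 6 stefin A genes tested on chromosome 16, cysteine protease inhibitors of myeloid cells, lay above in T/F under CCS1477. Stfa2 was at 2.08, 2.69 and 0.273 TPM in D/F and at 52.5, 40.5 and 6.67 TPM in T/F, and Gm5483 at 4.35, 1.14 and 1.19 TPM against 29.5, 42.5 and 10.1 TPM. T/F replicate 3 was the lowest of its group in all 6, and none was called (limma adjusted p = 0.162 to 0.302). Under DMSO their differences had the same sign.

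Of 9 Ms4a genes tested on chromosome 19, 5 lay above in T/F. Ms4a6d was at 3.09, 2.39 and 5.50 TPM in D/F and 10.2, 17.8 and 12 TPM in T/F, and Ms4a6b at 1.75, 1.34 and 0.564 TPM against 5.13, 7.17 and 5.59 TPM. Ms4a7 overlapped. Of 6 Ugt1a genes, which encode glucuronosyltransferases that share their last exons, 5 lay above in T/F, with Ugt1a6a at 2.87, 1.81 and 4.10 TPM in D/F and 10.7, 13.6 and 8.27 TPM in T/F. The called gene Glrp1, higher in D/F, lies in the same 5 Mb of chromosome 1 as this cluster.

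The interferon-inducible cluster on chromosome 7 went both ways. Trim34b and Trim12c lay above in D/F, and Trim30c, Trim12a, Gvin1, Gm1966 and Gm8995 lay above in T/F, of 11 tested. Gvin1 was at 4.86, 16.4 and 5.89 TPM in D/F and 41.2, 48.7 and 46.3 TPM in T/F. Trim12a was at 7.95, 58.1 and 7.16 TPM in D/F and 67.0, 67.7 and 69.7 TPM in T/F, so D/F replicate 2 was close to the T/F level while the others were far below it.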
